A study of Danio rerio with 12 samples.

Results

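RNA of gene families with enzymes that clear reactive aldehydes, ketones and glyoxals by routes other than Akr7a3 was followed in the eyes of adult akr7a3+/+ and akr7a3-/- zebrafish. Not every gene of these families encodes an enzyme of clearance, and the data hold no protein or activity. Genes were taken by symbol: the aldehyde dehydrogenases (aldh), the class III alcohol dehydrogenase adh5 with adh8a and adh8b, the S-formylglutathione hydrolase esd, the glyoxalase genes glo1, hagh, glod4, glod5 and park7, the reductases of the ptgr, cbr1 and cbr4 groups, dcxr, sord, the dihydrodiol dehydrogenases and fn3krp. The rule found 40 of the 25432 genes in the table, and 39 of them passed the filter of at least 0.5 FPKM (fragments scaled to the length of the gene and the depth of the library) in at least 6 of the 12 eyes, so that they were among the 18473 genes tested. The gene left out, aldh9a1a.2, stood at 0.312 ± 0.0574 FPKM in the akr7a3+/+ eyes and 0.477 ± 0.199 FPKM in the akr7a3-/- eyes (mean and SD, n = 6 each). One tested gene, aldh8a1, passed with exactly 6 eyes at the minimum, 5 of them akr7a3+/+.

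Aldehydes form in every cell from lipid peroxidation, amino acid and polyamine breakdown and sugar metabolism, and they modify proteins and DNA when they are not removed. Aldehyde dehydrogenases oxidise them to acids, aldo-keto and carbonyl reductases turn them into alcohols, and glutathione captures formaldehyde for Adh5 and methylglyoxal for Glo1, whose products are released by Esd and Hagh. In the eye, aldehyde dehydrogenases also make retinoic acid from retinal, and the retina is rich in polyunsaturated lipids from which aldehydes such as acrolein arise.

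Poly(A) RNA of the eye was sequenced from 6 akr7a3+/+ and 6 akr7a3-/- zebrafish samples. The akr7a3-/- line was made with CRISPR/Cas9 aimed at the first exon and carries a small frameshifting insertion. The line was founded in fish with the Tg(fli1:EGFP) transgene, which labels endothelium, and the labels give no other treatment. The labels do not give age, sex or time of collection, and do not say whether each eye came from a separate fish, so that p-values measure the spread between these samples. Eyes are named by the number in their label, which is 1, 2, 3, 4, 6 and 7 for akr7a3+/+ and 1, 4, 5, 7, 8 and 9 for akr7a3-/-. Values below follow that order.

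The steps between FPKM values gave whole reads for all 24681 genes above 0, with 21194609 to 35016388 reads per eye. akr7a3 itself (ENSDARG00000016649), an aldo-keto reductase, was measured at 1.91, 2.65, 1.51, 1.35, 2.49 and 2.38 FPKM in the akr7a3+/+ eyes and at 0.406, 0.414, 0.325, 0.383, 0.29 and 0.267 FPKM in the akr7a3-/- eyes. No eye of one genotype reached the range of the other, and akr7a3 was lower in akr7a3-/- eyes, with a log2 fold change of -1.56 on the log2(FPKM + 0.5) scale used throughout (SE 0.14, limma, Benjamini-Hochberg adjusted p = 2.66e-05). It was -2.23 with a pseudocount of 0.1, -1.16 with a pseudocount of 1 and -2.55 with voom on the recovered reads. Over all tested genes 5.78% were called higher and 5.77% lower in akr7a3-/- eyes, which is the background for the counts that follow. Photoreceptor markers summed to 22195 to 35440 FPKM per akr7a3+/+ eye and 34712 to 42638 FPKM per akr7a3-/- eye, with 2 of 17 higher and 4 lower. The summed lens markers ranged from 2866 to 6365 FPKM in the akr7a3+/+ eyes and from 214 in akr7a3-/- eye 1 to 6587 FPKM in akr7a3-/- eye 5, and 0 of 14 tested were called. Of the extraocular muscle markers 10 of 20 were lower and 0 higher in akr7a3-/- eyes, with sums of 808 to 1873 against 680 to 1002 FPKM. Among immediate-early genes 2 of 30 were higher and 18 lower, and among circadian clock genes 14 of 36 were higher and 14 lower. The clock genes per1b and nr1d1 had log2 fold changes of -2.57 and -2.65, and arntl2 one of 2.33. For the immediate-early gene fosab it was -2.69. As the labels do not give the time of collection, genotype and time of collection or handling cannot be told apart. Red blood cell markers summed to between 184 FPKM, in eye 3, and 1495 FPKM in the akr7a3+/+ group and to between 964 and 1854 FPKM in the akr7a3-/- eyes. None of the markers in these lists was at 0 in every eye, and the part of these differences in the results below was not tested.

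The levels of the 40 genes spanned from below 1 FPKM to over 80 FPKM, and 32 were above the median gene of the table in akr7a3+/+ eyes. The mean over the 12 eyes was 10 FPKM or more for 13 genes, between 1 and 10 FPKM for 24 and under 1 FPKM for 3. The coefficient of variation was under 20% in both genotypes for 20 genes. Reads per gene and eye ran from 10 to 8649.

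**Figure D1:**
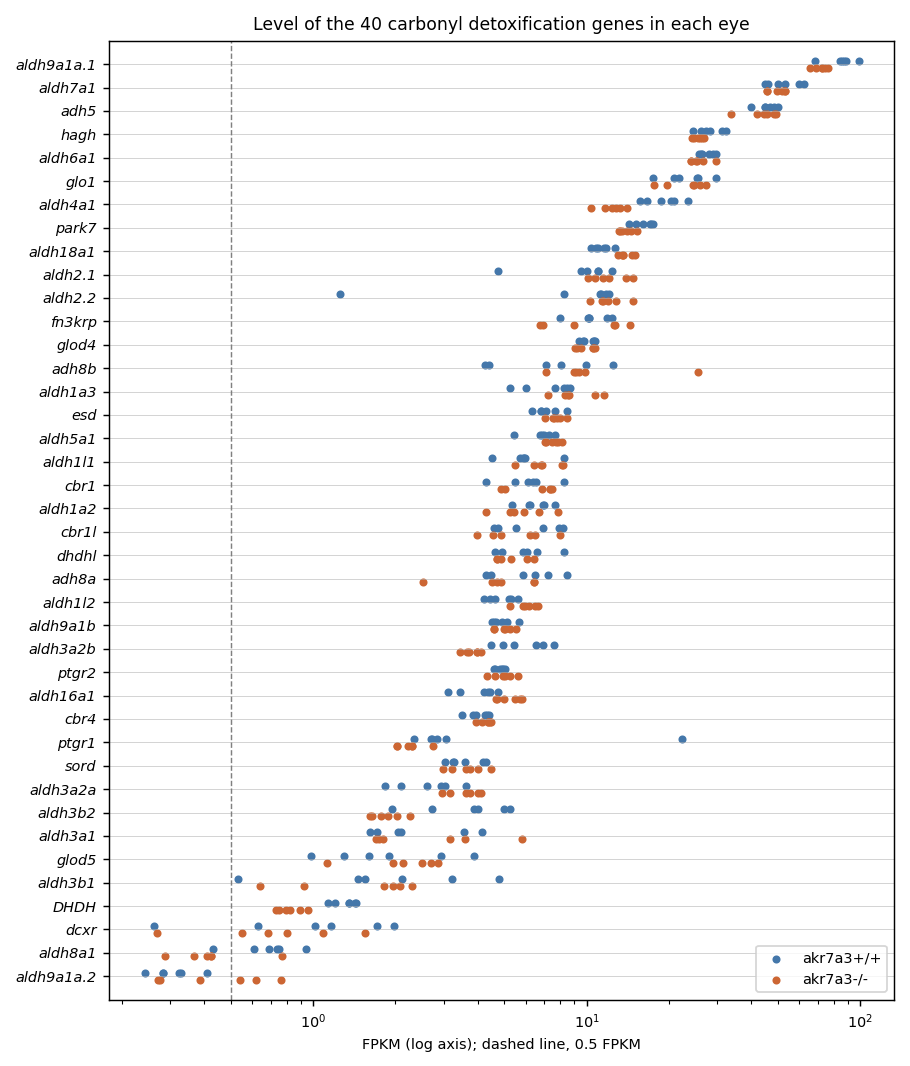
FPKM on a log axis for each of the 40 genes in each of the 12 eyes, ordered by mean level, with akr7a3+/+ eyes in blue, akr7a3-/- eyes in orange and the filter minimum of 0.5 FPKM as a dashed line. Most genes show overlapping blue and orange points, aldh9a1a.1 is highest, and 1 akr7a3+/+ eye stands far from the rest for ptgr1 and aldh2.2.

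The 3 genes with the highest levels were aldh9a1a.1, aldh7a1 and adh5, which belong to carnitine synthesis, lysine breakdown and formaldehyde removal. For aldh9a1a.1 (ENSDARG00000069100) the akr7a3+/+ eyes gave 98.9, 84.5, 68.3, 87.4, 88.8 and 86.2 FPKM and the akr7a3-/- eyes 76.3, 72.8, 74.5, 65.5, 72.5 and 69.3 FPKM. All akr7a3-/- eyes lay below every akr7a3+/+ eye other than eye 3, which fell among them. The log2 fold change was -0.25 (95% interval -0.42 to -0.07, limma adjusted p = 0.0646), which missed the threshold of 0.05. Without akr7a3+/+ eye 3 the log2 fold change was -0.31 (limma adjusted p = 0.00815). Median-of-ratios scaling also moved it past the threshold, at -0.24 (limma adjusted p = 0.0494). Of 20 alternative fits these 2 alone called it, and with 1 eye left out its limma adjusted p reached 0.122.

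For aldh7a1 (ENSDARG00000018426) the levels were 50.3, 59.8, 44.9, 62.4, 46.1 and 53.2 FPKM in the akr7a3+/+ eyes and 49.8, 45.5, 45.6, 53, 51.7 and 53.3 FPKM in the akr7a3-/- eyes. The akr7a3-/- eyes all lay within the akr7a3+/+ range. Its log2 fold change of -0.07 had a 95% interval of -0.26 to 0.11 (limma adjusted p = 0.638). For adh5 (ENSDARG00000080010), which oxidises the glutathione adduct of formaldehyde, the values were 50.01, 44.7, 40.02, 45.1, 46.8 and 48.3 FPKM in the akr7a3+/+ eyes and 48.5, 45.7, 44.7, 33.7, 49.1 and 42 FPKM in the akr7a3-/- eyes. The lowest was akr7a3-/- eye 7, and the other 11 eyes overlapped. The log2 fold change of adh5 was -0.07, with an interval of -0.26 to 0.13 (limma adjusted p = 0.694).

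Of the 39 tested genes 7 differed between the genotypes, 17.9% against 11.5% of all tested genes. In akr7a3-/- eyes 3 were higher (aldh18a1, aldh1l2 and aldh16a1) and 4 were lower (aldh4a1, aldh3a2b, aldh3b2 and DHDH), where 5.78% of all tested genes were called higher and 5.77% lower. The aldehyde dehydrogenases held 6 of the 7, out of 20 tested, and the other 19 genes held 1. The genotypes did not overlap for 4 of the 39 genes, 10.3% against 6.62% of all tested genes. Of these 4, 1 was higher and 3 were lower in akr7a3-/- eyes, where 3.55% of all tested genes were higher and 3.06% lower without overlap. At an unadjusted p under 0.05 there were 12 of 39 genes, 30.8% against 26.2%. No gene reached a log2 fold change of 1 in either direction, which 1.91% of all tested genes did. The median log2 fold change of the 39 genes was -0.028, with 18 above and 21 below 0, and that of all tested genes was -0.0080. With 1 eye left out it lay between -0.061, without akr7a3+/+ eye 3, and -0.0057, without akr7a3+/+ eye 7. Fewer cells of one type and less RNA per cell cannot be told apart in RNA from eyes.

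**Figure D2:**
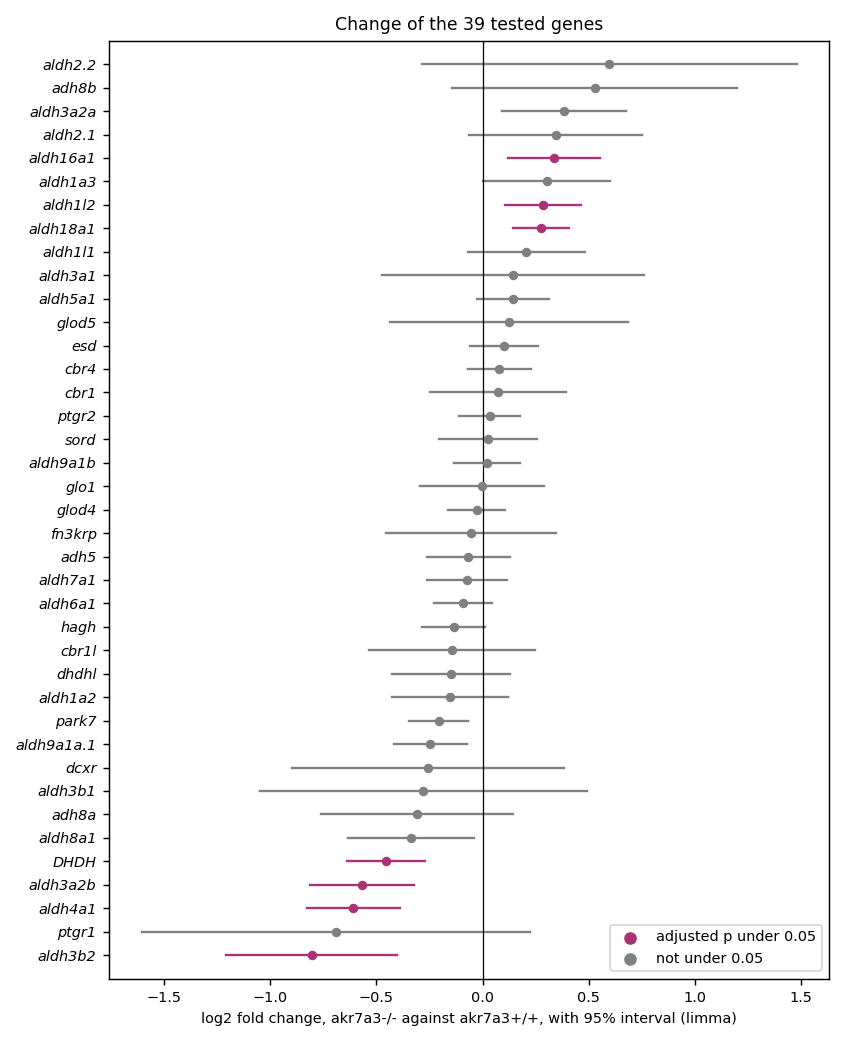
Log2 fold change of akr7a3-/- against akr7a3+/+ eyes with its 95% interval for each of the 39 tested genes, ordered by size, in purple for an adjusted p under 0.05. The 7 purple genes run from aldh3b2 at -0.81 to aldh16a1 at 0.34, and most other intervals include 0.

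Enzymes of proline and glutamate metabolism included the gene with the smallest p among the 39 and the 1 gene that was higher without overlap. They were not a group set for the counts. Both genes belong to the aldehyde dehydrogenases related to amino acids, GABA and polyamines, where 3 of 9 tested genes were called, 2 higher and 1 lower. Over all tested genes 11.5% were called, and with 9 genes nothing is read from the count. aldh4a1 (ENSDARG00000038207), the mitochondrial enzyme that completes proline breakdown by oxidising glutamate semialdehyde, was measured at 16.7, 20.3, 15.7, 23.6, 18.7 and 20.9 FPKM in the akr7a3+/+ eyes and at 14.1, 12.8, 10.4, 13.3, 11.7 and 12.4 FPKM in the akr7a3-/- eyes. Every akr7a3-/- eye was lower than every akr7a3+/+ eye. The mean fell from 19.3 ± 2.9 FPKM to 12.4 ± 1.29 FPKM (SD, n = 6 each), giving a log2 fold change of -0.61 (SE 0.10, limma adjusted p = 0.00193). The exact permutation p was 0.00216 (two-sided, unadjusted), the smallest that 6 against 6 can give. Groups without overlap always give this value, so it adds nothing to the lack of overlap. aldh18a1 (ENSDARG00000099579), which makes glutamate semialdehyde from glutamate at the start of proline synthesis, gave 11.1, 12.7, 11.8, 11.6, 10.8 and 10.4 FPKM in the akr7a3+/+ eyes and 15.1, 13, 13.4, 14.7, 13.6 and 13.5 FPKM in the akr7a3-/- eyes. All 6 akr7a3-/- eyes were above all 6 akr7a3+/+ eyes. Its mean rose from 11.4 ± 0.829 FPKM to 13.9 ± 0.791 FPKM (SD, n = 6 each), giving a log2 fold change of 0.28 (SE 0.061, limma adjusted p = 0.0114). Both calls held when each eye was left out in turn.

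The fatty and aromatic aldehyde dehydrogenases had 2 of 5 tested genes lower and none higher, where 5.77% of all tested genes were lower. With 5 genes nothing is read from this count. For aldh3a2b (ENSDARG00000029381), a fish copy of the fatty aldehyde dehydrogenase that acts on long-chain aldehydes in mammals, the levels were 7.62, 6.51, 5.43, 6.91, 4.95 and 4.48 FPKM in the akr7a3+/+ eyes and 3.99, 4.1, 3.66, 3.43, 3.97 and 3.73 FPKM in the akr7a3-/- eyes. The lowest akr7a3+/+ eye was above the highest akr7a3-/- eye, and the akr7a3-/- eyes lay close together. The mean fell from 5.98 ± 1.22 FPKM to 3.81 ± 0.249 FPKM (SD, n = 6 each), giving a log2 fold change of -0.57 (SE 0.11, limma adjusted p = 0.00659). The related copy aldh3a2a stood at 2.69 ± 0.654 FPKM against 3.61 ± 0.461 FPKM (SD, n = 6 each). Its groups overlapped, and its log2 fold change of 0.38 (95% interval 0.09 to 0.68) had a limma adjusted p of 0.0878.

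aldh3b2 (ENSDARG00000035606), given as aldh3b4 in the zebrafish name table, had the lowest log2 fold change among the 39 genes. Its values were 2.73, 5.0, 1.94, 5.23, 4.01 and 3.88 FPKM in the akr7a3+/+ eyes and 2.26, 1.64, 1.62, 1.77, 2.02 and 1.89 FPKM in the akr7a3-/- eyes. The groups overlapped only through akr7a3+/+ eye 3, which lay among the akr7a3-/- eyes. The mean fell from 3.8 ± 1.28 FPKM to 1.87 ± 0.246 FPKM (SD, n = 6 each), giving a log2 fold change of -0.81 (SE 0.19, limma adjusted p = 0.0147). The remaining members of the family, aldh3a1 and aldh3b1, had wide intervals of -0.47 to 0.76 and -1.05 to 0.49. For aldh3b1 the eyes spread 9.06-fold, from 0.530 to 4.80 FPKM.

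A dihydrodiol dehydrogenase was the 1 gene outside the aldehyde dehydrogenases that passed the threshold. DHDH (ENSDARG00000019081), named dhdh.2 in the GRCz12tu annotation, is related to the mammalian enzyme that oxidises dihydrodiols and reduces dicarbonyls. It gave 1.43, 1.35, 1.43, 1.13, 1.2 and 1.35 FPKM in the akr7a3+/+ eyes and 0.955, 0.824, 0.732, 0.796, 0.753 and 0.897 FPKM in the akr7a3-/- eyes. Every akr7a3-/- eye was lower than every akr7a3+/+ eye. The mean fell from 1.32 ± 0.123 FPKM to 0.826 ± 0.0857 FPKM (SD, n = 6 each), giving a log2 fold change of -0.45 (SE 0.084, limma adjusted p = 0.00409). Its neighbour dhdhl was higher in level, at 6.04 ± 1.3 FPKM in the akr7a3+/+ eyes and 5.34 ± 0.742 FPKM in the akr7a3-/- eyes, with a log2 fold change of -0.15 (95% interval -0.43 to 0.13, limma adjusted p = 0.50). The sum of the copies was 7.36 ± 1.41 FPKM in the akr7a3+/+ eyes and 6.17 ± 0.810 FPKM in the akr7a3-/- eyes (n = 6 each, exact permutation p = 0.0779). The gene lengths behind these FPKM values were 5650 for DHDH and 1247 for dhdhl. A read therefore weighs more in the sum when counted for dhdhl, and the sum does not correct for reads shared by the copies. How reads shared by neighbouring copies were counted is not given in the sources used here, so the value of a single copy is uncertain. The same holds for the other neighbouring copies, which are aldh2.1 and aldh2.2, aldh9a1a.1 and aldh9a1a.2, aldh3a1 and aldh3a2a, and adh8a and adh8b.

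The remaining pair of called genes rose by small amounts and overlapped between the genotypes. aldh1l2 (ENSDARG00000070230), the mitochondrial formyltetrahydrofolate dehydrogenase of folate metabolism, was measured at 5.2, 4.2, 4.62, 5.32, 5.6 and 4.45 FPKM in the akr7a3+/+ eyes and at 5.98, 5.25, 6.18, 6.47, 6.66 and 5.83 FPKM in the akr7a3-/- eyes. The akr7a3-/- eye 4 lay within the akr7a3+/+ range, and the other akr7a3-/- eyes were above it. The log2 fold change was 0.28 (SE 0.082, limma adjusted p = 0.0412). For aldh16a1 (ENSDARG00000037935) the values were 3.46, 4.74, 3.11, 4.23, 4.35 and 4.44 FPKM in the akr7a3+/+ eyes and 5.7, 4.65, 5.0, 5.46, 5.79 and 4.7 FPKM in the akr7a3-/- eyes. Here eyes 4 and 9 of the akr7a3-/- group lay below the highest akr7a3+/+ eye, eye 2. Its log2 fold change was 0.34 (SE 0.10, limma adjusted p = 0.0481). Leaving out 1 eye at a time kept the aldh1l2 call in 4 of 12 fits and the aldh16a1 call in 1 of 12, whereas the other 5 called genes stayed past the threshold in 12 of 12.

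**Figure D3:**
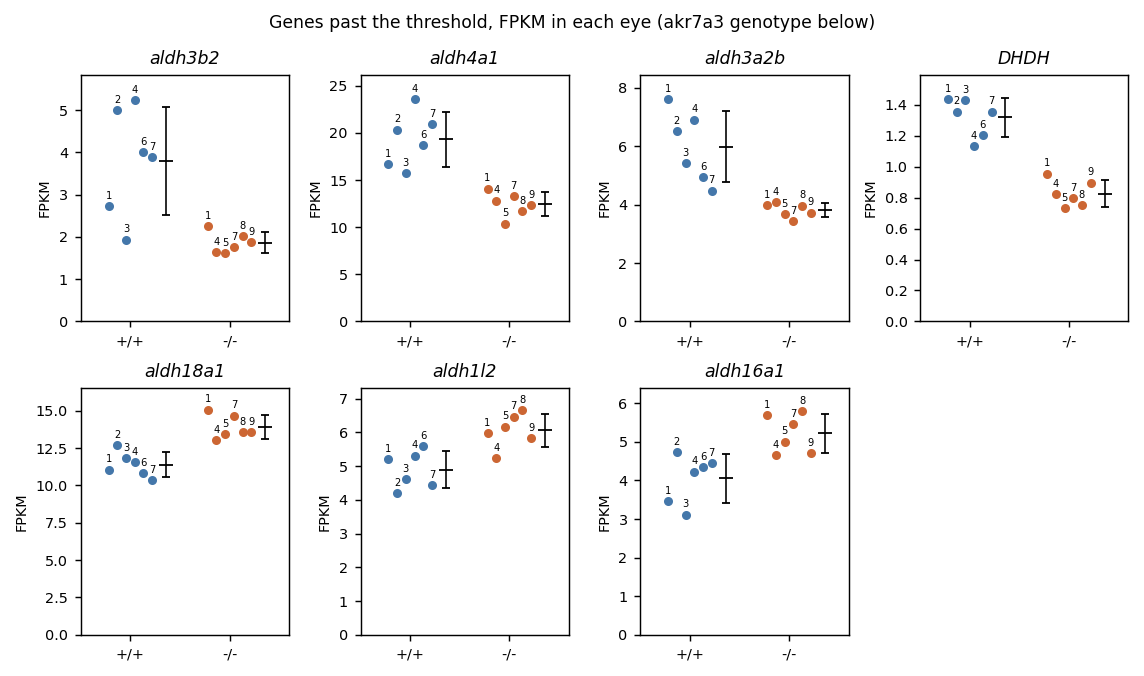
FPKM in each eye for the 7 genes past the threshold, with akr7a3+/+ eyes in blue and akr7a3-/- eyes in orange, the eye numbers above the points, and the mean with its SD (n = 6) in black beside each group. The groups are apart for aldh4a1, aldh3a2b, DHDH and aldh18a1 and overlap for aldh3b2, aldh1l2 and aldh16a1.

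None of the 5 glyoxalase system genes passed the threshold, where 11.5% of all tested genes did, and with so few genes nothing is read from the count. glo1 (ENSDARG00000068978), which converts the adduct of methylglyoxal and glutathione, gave 20.9, 21.9, 17.5, 29.9, 25.3 and 25.6 FPKM in the akr7a3+/+ eyes and 26.1, 27.3, 19.7, 24.6, 17.7 and 24.8 FPKM in the akr7a3-/- eyes. Its groups covered nearly the same range. The log2 fold change of glo1 was -0.0042 with an interval of -0.30 to 0.29 (limma adjusted p = 0.989). For hagh (ENSDARG00000025338), which releases lactate and glutathione from the product of Glo1, values were 31.2, 28.2, 27.4, 32.3, 24.5 and 26.2 FPKM in the akr7a3+/+ eyes and 26.5, 26, 24.3, 26.8, 25.5 and 24.7 FPKM in the akr7a3-/- eyes. The akr7a3-/- eyes lay in the lower part of the akr7a3+/+ range, with eye 5 just below it. Its log2 fold change was -0.14 (95% interval -0.28 to 0.01, limma adjusted p = 0.233).

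park7 (ENSDARG00000116835), the gene of the DJ-1 protein to which a glutathione-independent glyoxalase activity has been ascribed, was measured at 16, 15.1, 14.3, 17.5, 17.3 and 17 FPKM in the akr7a3+/+ eyes and at 13.3, 13.2, 13.5, 15.3, 14 and 14.5 FPKM in the akr7a3-/- eyes. The akr7a3-/- eyes 1, 4, 5 and 8 were below every akr7a3+/+ eye, and eyes 7 and 9 lay within the lower part of the akr7a3+/+ range. The log2 fold change of -0.21 (95% interval -0.35 to -0.07) had a limma adjusted p of 0.0556, which came to 0.0288 without akr7a3+/+ eye 3 and 0.0423 without akr7a3-/- eye 7. No other of the 19 alternative fits called park7, and with 1 eye left out its limma adjusted p reached 0.112. The glyoxalase domain genes glod4 and glod5 differed in spread. glod4 (ENSDARG00000042509) stood at 9.81, 10.6, 9.42, 10.7, 10.6 and 9.73 FPKM in the akr7a3+/+ eyes and 10.7, 9.06, 9.24, 10.5, 9.56 and 10.6 FPKM in the akr7a3-/- eyes. Its log2 fold change of -0.03 had a narrow interval of -0.16 to 0.11 (limma adjusted p = 0.826). glod5 (ENSDARG00000071871) ranged widely in both groups, with 3.88, 1.3, 2.95, 0.983, 1.61 and 1.89 FPKM in the akr7a3+/+ eyes and 2.71, 2.87, 1.12, 2.12, 2.51 and 1.97 FPKM in the akr7a3-/- eyes. Its interval of -0.43 to 0.69 around 0.13 included changes in either direction (limma adjusted p = 0.809).

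The ALDH2 family, mitochondrial enzymes that oxidise acetaldehyde and lipid-derived aldehydes, had 1 eye far below the others in both copies. aldh2.2 (ENSDARG00000028087) gave 8.25, 11.8, 1.25, 11.2, 12.1 and 11.3 FPKM in the akr7a3+/+ eyes and 12.8, 11.4, 10.3, 11.4, 14.8 and 12 FPKM in the akr7a3-/- eyes. The akr7a3+/+ eye 3, with 64 reads, was lowest by far, and the other 11 eyes lay between 8.25 and 14.8 FPKM. aldh2.1 (ENSDARG00000089924) gave 10.1, 9.56, 4.75, 11, 12.4 and 11 FPKM in the akr7a3+/+ eyes and 14.8, 10.8, 10.1, 11.5, 13.9 and 12.1 FPKM in the akr7a3-/- eyes. Again akr7a3+/+ eye 3 was lowest, below the other 11 eyes at 9.56 to 14.8 FPKM. The log2 fold changes were 0.60 for aldh2.2 and 0.34 for aldh2.1, with limma adjusted p-values of 0.391 and 0.274. Without that eye they were 0.15 and 0.16 (limma adjusted p = 0.462 and 0.396). No protein-coding gene separates the copies in GRCz12tu. The ratio of aldh2.1 to aldh2.2 was 3.79 in akr7a3+/+ eye 3 and 0.812 to 1.22 in the other eyes, and the sum of the copies was 6.0 FPKM in that eye and 18.3 to 28.7 FPKM in the others.

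ptgr1, chosen after its values were seen, encodes a reductase of unsaturated aldehydes and of lipid mediators. It gave 3.07, 2.7, 22.3, 2.72, 2.84 and 2.33 FPKM in the akr7a3+/+ eyes and 2.23, 2.31, 2.03, 2.03, 2.75 and 2.31 FPKM in the akr7a3-/- eyes. The akr7a3+/+ eye 3 was high, with 1277 reads, and the other 11 eyes lay between 2.03 and 3.07 FPKM. The log2 fold change of -0.69 (limma adjusted p = 0.332) became -0.22 without that eye (limma adjusted p = 0.164). In the counts of genes outside the range of all other eyes, akr7a3+/+ eye 3 and akr7a3-/- eye 1 had 116 and 121 tested genes at less than 50% of the lowest other eye, where the 12 eyes had 16 to 121. On the high side akr7a3+/+ eye 1 had 61 tested genes at over 2 times the highest other eye, akr7a3+/+ eye 3 had 20, and the 12 eyes had 2 to 61. The counts of the 39 genes past the threshold without akr7a3+/+ eye 3 and without akr7a3-/- eye 1 were 7 and 6. Of the 7, 5 were also called with all eyes. They were joined by aldh9a1a.1 and park7, both lower, while aldh1l2 and aldh16a1, both called higher with all eyes, missed the threshold. The 6 without akr7a3-/- eye 1 include aldh8a1. It reached the filter minimum in 5 akr7a3+/+ eyes and in the eye left out, so that nothing is read from it.

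**Figure D4:**
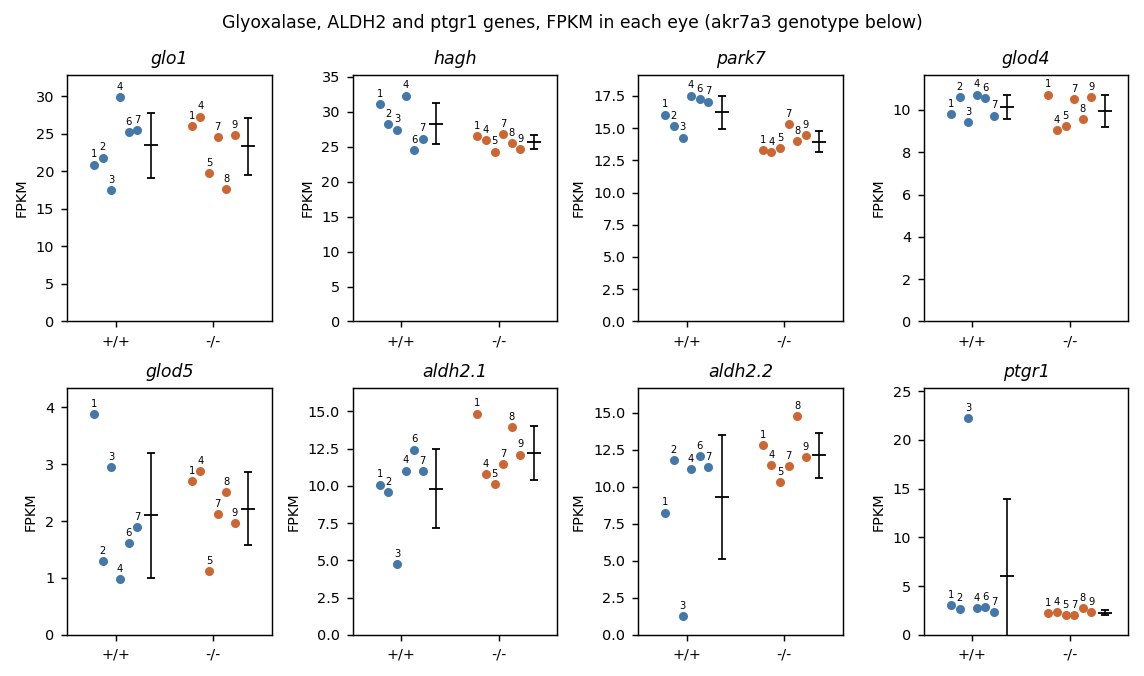
FPKM in each eye for the 5 glyoxalase system genes, the ALDH2 copies and ptgr1, drawn with akr7a3+/+ eyes in blue, akr7a3-/- eyes in orange, eye numbers above the points and the mean with its SD (n = 6) in black. The axis starts at 0, which hides the lower end of the bar for ptgr1. The akr7a3+/+ eye 3 is apart from all other eyes for aldh2.1, aldh2.2 and ptgr1, and no panel separates the genotypes.

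None of the genes that remain passed the threshold, where 11.5% of all tested genes did. The retinal aldehyde dehydrogenases that make retinoic acid, aldh1a2 and aldh1a3, had log2 fold changes of -0.15 and 0.30, with limma adjusted p-values of 0.485 and 0.187. aldh1l1, the cytosolic counterpart of aldh1l2, had a log2 fold change of 0.21 (95% interval -0.07 to 0.48, limma adjusted p = 0.335). The group of aldehyde dehydrogenases related to amino acids, GABA and polyamines was set from gene names, and the place of aldh16a1 in it was not tested. Besides aldh4a1, aldh18a1 and aldh16a1, 6 more of its genes were tested. Among these aldh5a1, which oxidises succinate semialdehyde from GABA, had an interval of -0.02 to 0.31, and aldh6a1, of valine breakdown, one of -0.23 to 0.05.

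The formaldehyde route beyond adh5 was represented by esd, with 7.2 ± 0.784 FPKM in the akr7a3+/+ eyes and 7.73 ± 0.484 FPKM in the akr7a3-/- eyes and an interval of -0.06 to 0.26. The neighbouring copies adh8a and adh8b are not read here as genes of this route. They overlapped between the genotypes, with log2 fold changes of -0.31 and 0.53 and limma adjusted p-values of 0.387 and 0.311. The value of adh8b was 0.28 without akr7a3-/- eye 5, and with 1 eye left out adh8a ranged from -0.39 to -0.15. Their sum was 13.8 ± 4.37 FPKM in the akr7a3+/+ eyes and 16.6 ± 7.66 FPKM in the akr7a3-/- eyes (n = 6 each, exact permutation p = 0.558). This sum too joins copies of unlike length, 905 for adh8a and 2206 for adh8b, and does not correct for shared reads. The 6 prostaglandin and carbonyl reductases had log2 fold changes from -0.69 for ptgr1 to 0.078 for cbr4. sord, which oxidises sorbitol to fructose, had an interval of -0.21 to 0.25, and fn3krp, related to a kinase that repairs glycated proteins, one of -0.45 to 0.34. Neither passed the threshold.

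The gene order places 2 of the 39 genes close to the edited locus. akr7a3 lies on chromosome 11 of GRCz12tu, aldh4a1 was the third tested gene on one side of it, and park7 was the third on the other side. Of the tested genes within 5, 10 and 25 places on each side, 2 of 10, 3 of 20 and 8 of 50 were called, and on the chromosome 85 of 571 were called, which is 14.9% against 11.5% of all tested genes. The called genes within 25 places include the clock gene per3, with a log2 fold change of -2.08. A difference carried by the edited allele and one carried by a linked stretch of chromosome cannot be told apart in these samples. Nor can either be told apart from a difference in time of collection, which the labels do not give. With the genes placed on chromosome 11 left out, 6 of the remaining 37 genes were called, 3 higher and 3 lower. Of these 6, aldh3b2 had no place in GRCz12tu, so that its chromosome is not known here. In the fit that kept chromosome 11, 11.5% of all tested genes were called.

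**Figure D5:**
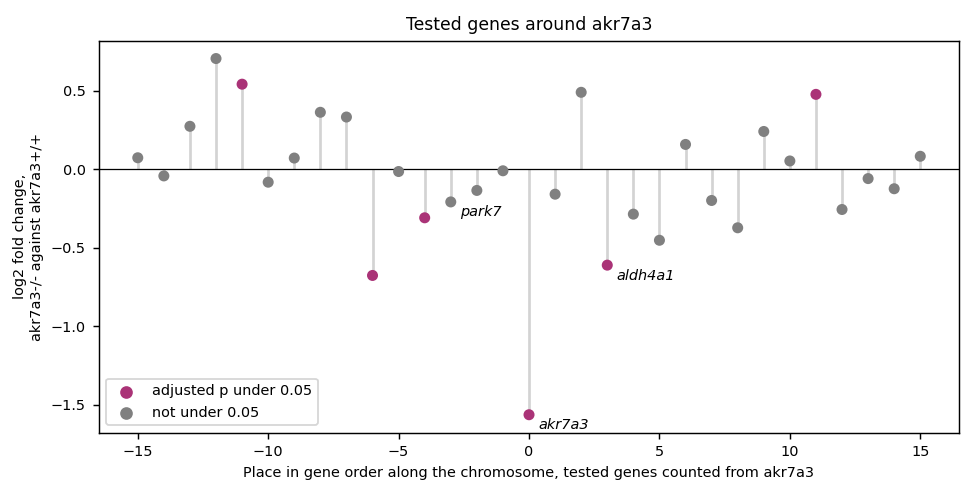
Log2 fold change of akr7a3-/- against akr7a3+/+ eyes for the tested genes up to 15 places on each side of akr7a3, in their order along the chromosome in GRCz12tu, with purple points for an adjusted p under 0.05. akr7a3 stands at -1.56, aldh4a1 at -0.61 and park7 at -0.21, with called genes among others that were not called.

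Genes of glutathione use and supply, other aldo-keto reductases, and amine oxidases with polyamine acetyltransferases were read from lists. Of 25 tested genes of glutathione transferases and other glutathione genes, 1 was higher and 2 were lower in akr7a3-/- eyes. This share was near the 11.5% of all tested genes, and the list had a median log2 fold change of -0.025. The 3 called genes were all transferases. gsto2, an omega class glutathione transferase, was measured at 8.71, 8.26, 8.98, 9.82, 9.08 and 11.3 FPKM in the akr7a3+/+ eyes and 6.45, 5.99, 5.7, 5.74, 6.77 and 8.23 FPKM in the akr7a3-/- eyes. Its groups did not overlap, and it fell with a log2 fold change of -0.50 (SE 0.097, limma adjusted p = 0.00526). mgst3a, a microsomal glutathione transferase, gave 7.9, 4.4, 6.8, 12.6, 11.6 and 14 FPKM in the akr7a3+/+ eyes and 14.4, 19.2, 22.8, 12.9, 12.4 and 24.4 FPKM in the akr7a3-/- eyes. Its groups overlapped, with a log2 fold change of 0.90 (SE 0.27, limma adjusted p = 0.0442). gsta.1, an alpha class transferase, gave 24.9, 7.82, 12.2, 5.23, 5.61 and 7.86 FPKM in the akr7a3+/+ eyes and 3.14, 4.97, 4.93, 4.68, 3.77 and 2.56 FPKM in the akr7a3-/- eyes. Its highest value was in akr7a3+/+ eye 1, the groups did not overlap, and its log2 fold change was -1.12 (SE 0.32, limma adjusted p = 0.0374). Of a list of 9 other aldo-keto reductase symbols, 3 were found and 2, akr1a1b and akr1b1, were tested. Neither was called, and with 2 genes nothing is read from this beside the 11.5%. Sequences of the glutathione transferases were not compared, and how reads shared by copies were counted is not given. The value of a single copy may therefore be uncertain here too.

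Of 8 tested genes for amine oxidases and polyamine acetyltransferases, 1 was higher and 1 lower, where 5.78% and 5.77% of all tested genes were. The median log2 fold change of the list was -0.061, and with so few genes nothing is read from the count. paox1, a polyamine oxidase, gave 2.98, 3.82, 2.7, 2.95, 2.41 and 3.4 FPKM in the akr7a3+/+ eyes and 2.37, 1.67, 1.97, 1.68, 1.86 and 1.84 FPKM in the akr7a3-/- eyes. The akr7a3-/- eyes were all lower, with a log2 fold change of -0.56 (SE 0.11, limma adjusted p = 0.0050). smox, the spermine oxidase whose product breaks down to acrolein, gave 16.5, 17.4, 17.2, 18.2, 20.4 and 23.6 FPKM in the akr7a3+/+ eyes and 20.2, 20.4, 28.5, 35.5, 38.8 and 30.8 FPKM in the akr7a3-/- eyes. Eyes 1 and 4 of the akr7a3-/- group lay within the akr7a3+/+ range, and the log2 fold change was 0.58 (SE 0.16, limma adjusted p = 0.0357). With 1 eye left out at a time, mgst3a, gsta.1 and smox stayed past the threshold in 5, 4 and 4 of 12 fits, and gsto2 and paox1 in 12 of 12.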

How the data were processed

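The eyes of 6 akr7a3+/+ and 6 akr7a3-/- zebrafish samples were profiled by strand-specific poly(A) RNA-seq. The authors mapped reads to GRCz11 with HISAT2, counted them with featureCounts 2.0.3 and deposited FPKM values per gene. Strand and multi-mapping settings are not given in the sources used here. Reads were recovered from the steps between the deposited FPKM values, and totals ranged from 21194609 to 35016388 reads per eye. Depth limits precision for genes with few reads.

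The filter kept genes that reached 0.5 FPKM in 6 or more of the 12 eyes. A linear model with genotype as its only term was fitted to log2(FPKM + 0.5) by limma 3.58.1 (R 4.3.3, with a mean-variance trend), and p-values were adjusted by Benjamini-Hochberg over all tested genes. Fold changes of low genes are understated by the 0.5. A gene was called at an adjusted p under 0.05. Two-sided exact permutation tests over the eyes were run on single values. The pipeline was also run on simulated data. Its detection rate for small changes is not given here, so a gene that was not called may still differ.

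Alternatives were a pseudocount of 0.1 or 1, no filter, a minimum of 1 FPKM, median-of-ratios scaling, a replicate block, voom on the recovered reads, leaving out each eye, and leaving out the chromosome of akr7a3. Members and lists were chosen with earlier results of these data known. Values in every eye are given for members that were called or did not overlap, for the glyoxalase and ALDH2 genes and for the 3 highest genes. Besides these, akr7a3 and called genes of the glutathione, aldo-keto reductase and amine oxidase with acetyltransferase lists were named. ptgr1, adh8b and aldh8a1 were added after their values were seen, as were other members given by interval. GRCz12tu was used only for names and neighbours, and 16584 of 18473 tested genes (89.8%) had a place in it. Other lists were marker genes of photoreceptors, Müller glia, pigment epithelium, lens, cornea, muscle, blood and endothelium, with clock and immediate-early genes. Beside 11.5% of all tested genes, 6 of 17 photoreceptor genes were called (2 higher, 4 lower) and 2 of 10 Müller glia genes (1 higher, 1 lower). The pigment epithelium list had 2 of 12 called (0 higher, 2 lower) and the cornea list 2 of 15 (1 higher, 1 lower). The endothelium list had 0 of 16 and the blood list 1 of 10 (1 higher, 0 lower). The lowest chi-square per degree of freedom between 2 eyes of 1 genotype was 27.8, so that no library was counted as deposited again.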

Additional observations from a re-analysis of the deposited data

Results flagged for a closer look

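In 5 of 82 groups of 6 eyes examined, 1 eye lay far from the others by Dixon's criterion, where chance flags about 1 in 20 groups. In akr7a3+/+ eye 3, aldh2.1 was at 4.75 FPKM against 9.56 FPKM in the next eye, aldh2.2 was at 1.25 FPKM against 8.25 FPKM, and ptgr1 was at 22.3 FPKM against 3.07 FPKM. In akr7a3-/- eye 5, adh8b was at 25.5 FPKM against 9.84 FPKM in the next eye. In akr7a3-/- eye 1, aldh8a1 was at 0.772 FPKM against 0.424 FPKM.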

How the results depend on the processing

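The members called came to 7 with a minimum of 1 FPKM, with either pseudocount and with voom on the recovered reads, to 8 with median-of-ratios scaling, where aldh9a1a.1 joined, and to 5 without a filter. The members called higher came to 1 without a filter and 1 with the replicate block, as aldh1l2 and aldh16a1 missed the threshold there. The direction of glo1 turned to 0.0023 with median-of-ratios scaling. Over all genes 1924 to 2303 were called in these settings. With an eye left out, 5 to 7 members were called, 1 to 3 higher and 4 to 6 lower, and 1518 to 2029 of all genes. The count of higher members was 1 without akr7a3-/- eye 1, 5, 7, 8 or 9 and without akr7a3+/+ eye 3 or 7. The values then ran from -0.083 to 0.071 for glo1, from -0.016 to 0.30 for glod5 and from -0.10 to 0.0069 for adh5. aldh4a1, aldh3a2b, aldh3b2, DHDH and aldh18a1 were called in each setting that tested them. The cause of the lost calls was not tested. The labels share the numbers 1, 4 and 7 between genotypes and do not say whether same-numbered eyes have anything else in common. The correlations of the deviations of same-numbered eyes were 0.085, -0.20 and 0.069, and the main fit did not pair them. These correlations were not put to a test, and whether these eyes share more than a number is not known here. With the replicate block on these numbers 5 members were called, 1 higher and 4 lower, and 1924 of all genes. Among the eyes with shared numbers, 0 of 3 akr7a3+/+ eyes and 2 of 3 akr7a3-/- eyes correlated best with their own number.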
